A study of Mus musculus with 24 samples.

Results

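The nuclear genes of oxidative phosphorylation were followed through crypts and villi of mouse small intestine in 4 genotypes. Members were taken by symbol: the Nduf a, b, c, s and v series (with the assembly factors that carry an Ndufaf symbol), Sdha to Sdhd, the Uqcr genes, Cox4 to Cox8 and the Atp5 genes. A gene entered when at least 1 probe set was annotated to it alone, and where several were, the set brightest on average over the 24 arrays was read. This gave 90 of the 18193 genes on the array, read by 179 probe sets. They comprised 34 subunits of complex I, 8 complex I assembly factors, 4 subunits of complex II, 8 of complex III, 19 of complex IV and 17 of complex V. Ndufa4 and Ndufa4l2, named after complex I, were placed with complex IV, where Ndufa4 is known to sit.

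RNA was hybridised to 24 Affymetrix arrays, 3 for each of 8 groups. The genotypes were WT (wild type), Rb (Rb-/-), TKO (E2f1-/-, E2f2-/- and E2f3-/- together) and QKO (those 3 losses and Rb-/-), each as crypts and as villi. All mice, WT included, were 2 months old, of a mixed C57BL/6;FVB background, and had received beta-naphthoflavone, which activates the aryl hydrocarbon receptor, by intraperitoneal injection 7 days before the tissue was taken. How the alleles were deleted, in which cells, and whether the replicates of a group are different animals, is not stated in the labels, so p-values measure the spread between these arrays, which may be technical. By the Y-linked gene Eif2s3y the Rb villus, TKO crypt and TKO villus groups each hold arrays of both sexes. The replicates of these groups thus do not all come from a single animal.

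Oxidative phosphorylation runs in the inner mitochondrial membrane. Complex I oxidises NADH and complex II oxidises succinate, complex III passes the electrons from ubiquinol to cytochrome c, and complex IV hands them to oxygen. Complexes I, III and IV pump protons, and complex V, the ATP synthase, uses the return of those protons to make ATP. Assembly factors help to build a complex and leave it once it is complete. In the small intestine crypts hold stem and dividing cells, and villi are covered by absorptive cells that have left the cell cycle. Rb holds E2f factors in check, and E2f1 to E2f3 switch on genes of DNA replication and division.

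Promoter sequence is shown first, because the members are often described as a group under shared regulators. RefSeq windows of 250 bases before to 50 bases after the gene start (GRCm38.p6) were found for 74 of the 90 members, in 79 windows. Both strands were searched for the letters of known sites. The NRF1 letters GCATGCGC were in 13.9% of the members' windows and in 2.71% of all 32851 windows. The Ets letters CCGGAAG, bound by GABPA, were in 24.1% of the members' windows and 8.86% of all windows. For the estrogen-related receptor letters AAGGTCA the shares were 10.1% and 4.72%, and for the YY1 letters AAGATGG 13.9% and 6.34%. The E2F letters TTTCCCGC, TTTGGCGC or TTTCGCGC were in 2 of the members' windows, those of Cox5a and Cox8a, a share of 2.53% beside 1.84% of all windows. The cAMP response letters TGACGTCA were in 3.80% and 1.79%, and the E-box CACGTG, bound by Myc, in 8.86% and 7.15%. Windows of 1 gene overlap, the member windows were not matched for base composition, and a match is a description of letters only.

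The 6 stretches below end at the base before the gene start and show, for each complex and the assembly factors, the named member with the smallest p between WT villi and WT crypts that had any of these letters there. Capitals mark the letters matched on either strand. They are from chr4:24897960-24898082 (plus strand) for Ndufaf4, chr1:92473759-92473878 (minus) for Ndufa10, chr4:140961151-140961270 (plus) for Sdhb, chr4:116075071-116075190 (minus) for Uqcrh, chr5:115348959-115349130 (minus) for Cox6a1 and chr15:102671048-102671167 (minus) for Atp5g2.
Ndufaf4: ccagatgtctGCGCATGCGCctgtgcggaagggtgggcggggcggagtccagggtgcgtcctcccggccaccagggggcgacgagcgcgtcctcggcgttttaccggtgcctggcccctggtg
Ndufa10: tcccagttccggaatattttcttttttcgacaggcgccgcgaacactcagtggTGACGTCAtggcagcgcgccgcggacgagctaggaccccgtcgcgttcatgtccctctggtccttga
Sdhb: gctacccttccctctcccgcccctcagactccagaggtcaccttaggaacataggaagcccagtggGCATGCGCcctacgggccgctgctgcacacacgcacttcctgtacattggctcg
Uqcrh: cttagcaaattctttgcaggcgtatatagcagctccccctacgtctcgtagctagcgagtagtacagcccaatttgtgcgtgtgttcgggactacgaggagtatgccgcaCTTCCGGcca
Cox6a1: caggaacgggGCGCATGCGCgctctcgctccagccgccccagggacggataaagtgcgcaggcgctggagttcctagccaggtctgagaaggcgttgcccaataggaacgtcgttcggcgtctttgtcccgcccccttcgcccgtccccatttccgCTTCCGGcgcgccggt
Atp5g2: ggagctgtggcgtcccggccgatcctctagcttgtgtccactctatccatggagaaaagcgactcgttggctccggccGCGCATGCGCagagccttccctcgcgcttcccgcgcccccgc
In Ndufaf4, Cox6a1 and Atp5g2 the NRF1 letters lie on both strands at overlapping positions, and Cox6a1 also holds the Ets letters 16 bases before its start. Ndufa10 has only the cAMP response letters here and Uqcrh only the Ets letters.

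Several arrays stand apart and bear on the results. By its Rb1 level, the array labelled WT crypts 3 (8.46) went against its label, as did the array labelled Rb crypts 2 (10.25); the other WT arrays read 10.31 to 10.93 and the other Rb arrays 8.23 to 9.36. All statements on WT or Rb crypts refer to arrays so labelled. Of the 3 deleted E2f genes, by their brightest probe sets, only E2f2 was called lower in crypts, in TKO against WT (-1.01 ± 0.19, limma adjusted p = 0.0033) and in QKO against Rb (-0.99 ± 0.19, limma adjusted p = 9.9e-04). In villi E2f2 stood at 0.36 ± 0.19 in TKO against WT (limma adjusted p = 0.277) and was lower in QKO than in Rb (-1.62 ± 0.19, limma adjusted p = 5.2e-06). E2f1 (0.17 in crypts, 0.34 in villi) and E2f3 (-0.25 and 0.14) were not called in TKO against WT. A second E2f1 set differed by -0.71 in crypts and by 0.94 in villi, both called. In QKO against Rb that set was lower in crypts (-0.61, limma adjusted p = 0.0152 over all probe sets) and in villi (-0.60, limma adjusted p = 0.0153 over all probe sets). The levels by the brightest sets thus do not show the loss of E2f1 and E2f3. The labels do not say which part of each gene was deleted, and a set outside that part would check nothing. TKO and QKO are the groups so labelled. QKO crypts 2 and QKO villi 3 had array medians of 5.17 and 5.26 beside 4.97 to 5.08 on the other arrays. Averages of the hybridisation controls did not overlap between crypts and villi in any genotype. They were higher in crypts in WT (10.81 to 11.16 beside 10.23 to 10.47) and Rb (10.93 to 11.11 beside 10.28 to 10.35). In TKO (10.57 to 10.70 beside 10.76 to 10.95) and QKO (10.55 to 10.98 beside 11.23 to 11.45) they were lower in crypts. Processing of the arrays and compartment thus cannot be told apart. Poly-A spike controls averaged 5.44 to 7.13 on the WT and Rb arrays and 9.70 to 11.89 on the TKO and QKO arrays, so a difference in the handling of the RNA and the loss of E2f1 to E2f3 cannot be told apart where TKO is set against WT or QKO against Rb. By the Y-linked gene Eif2s3y, 12 arrays were male: all QKO arrays, some TKO arrays of both compartments, some Rb villus arrays and no WT array. The labelled tissue held by its markers: the mean of 11 enterocyte genes lay between 12.64 and 13.99 on all arrays, all 6 stem cell genes were higher in WT crypts than in WT villi, and 9 of the 11 enterocyte genes were higher in WT villi.

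Most members gave strong signals. On the log2 scale of the deposited values, which run from 2.29 to 14.89, 72 of the 90 had a mean level above 10 over the 8 groups. All 4 complex II, 8 complex III and 17 complex V genes were among them, as were 31 of 34 in complex I, 11 of 19 in complex IV, and 1 of the 8 assembly factors. Replicates were tight, with a median SD of 0.10 over 3 arrays. Groups differed little: the range of a member's 8 group means had a median of 0.49, with 1.90 for Ndufaf6 at the top. Of the 209 calls made over 16 comparisons and 90 members, 7 were past 1 on the log2 scale and their median size was 0.50. The assembly factors had the widest median range (1.16) and complex IV the narrowest (0.37). Their median SDs over 3 arrays were 0.16 and 0.10. Mean levels ran from 7.74 to 10.01 for the assembly factors and from 3.24 to 14.16 in complex IV, and the part of signal level in these ranges was not tested.

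Isoforms known from other tissues were mostly dim. Cox4i2, the lung isoform, read 4.58 to 5.30 over all arrays. Cox8b, a muscle isoform, read 4.78 to 5.40, and Cox7b2 read 2.96 to 4.05. None of these 3 was called in any comparison. Cox6a2, the heart and muscle isoform, read 6.11 to 6.93, and Cox7a1, another muscle isoform, read 9.51 to 11.14. The mean of 10 muscle genes lay between 4.62 and 5.62 on every array, and 1 of the 10 (Ckm) was higher in WT villi than in WT crypts. Its part in the Cox7a1 values was not tested.

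The first comparison asks how the apparatus differs between differentiated villi and dividing crypts in WT. Differences are log2 villi minus crypts ± SE from limma, with an adjusted p (Benjamini-Hochberg over 18193 genes) under 0.05 as the threshold. In WT, 18 of 90 members were higher in villi (18.8% of all genes were) and 13 were lower (18.6% of all genes), so the shares were near the background. The median member differed by 0.08, as did the median of all genes (0.08). Within the group the parts differed: 0 of 8 assembly factors were higher and 5 lower, while 6 of 19 complex IV genes were higher and 0 lower. Complex I had 7 higher and 4 lower of 34, complex V 4 and 2 of 17, complex II 1 and 1 of 4, and complex III 0 and 1 of 8. In bulk tissue fewer cells of a type and less RNA per cell cannot be told apart.

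**Figure D1:**
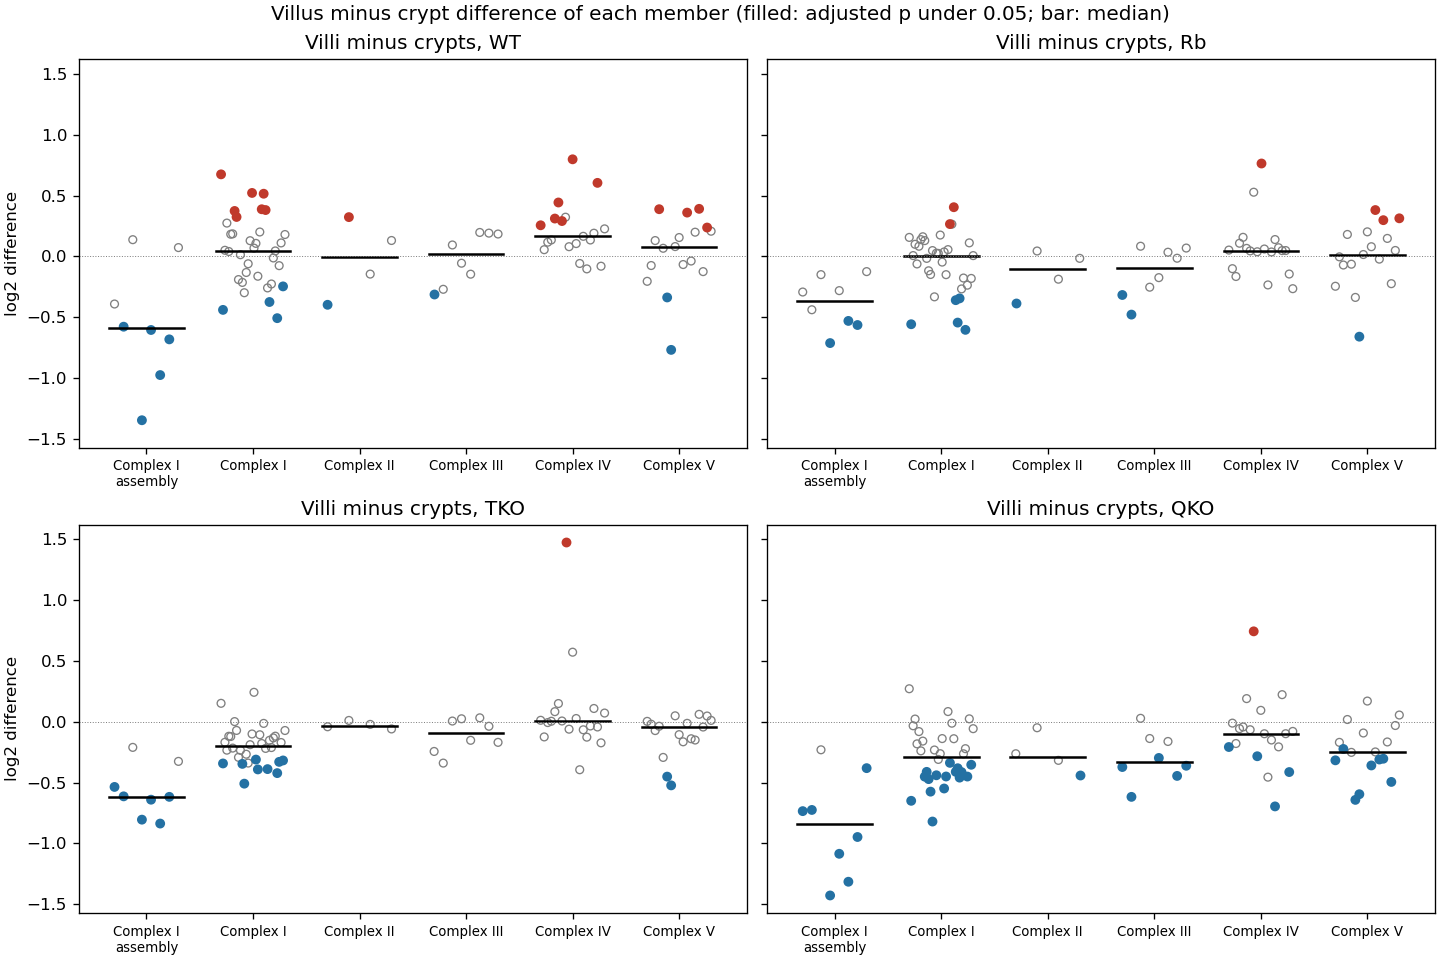
Log2 difference of villi minus crypts (y axis) for each of the 90 members by complex (x axis) in the 4 genotypes, with filled points for an adjusted p under 0.05 and bars for the median. The median of the assembly factors lies below 0 in every genotype (-0.59, -0.37, -0.61 and -0.84 in WT, Rb, TKO and QKO), and 41 of 90 members are lower in QKO villi. Poly-A spike controls also differ between QKO crypts and QKO villi.

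Among the assembly factors Ndufaf4, which helps to build the quinone module of complex I, changed most. Its levels were 10.07, 9.66 and 9.73 in the WT crypts, against 8.50, 8.47 and 8.44 on the WT villus arrays. The groups do not overlap, and the difference was -1.35 ± 0.16 (limma, adjusted p = 1.3e-06), 2.55-fold lower in villi. Ndufaf6, needed early in complex I assembly, read 8.57, 8.40 and 8.19 in crypts and 7.59, 7.16 and 7.48 in villi. All villus values lie below all crypt values (-0.98 ± 0.18, limma adjusted p = 1.6e-04). Ndufaf7, a methyltransferase that modifies a core subunit, fell by 0.68 ± 0.14 on the log2 scale (limma adjusted p = 4.5e-04). Ndufaf5 (-0.61 ± 0.17) and Ndufaf2 (-0.58 ± 0.16) also passed. Ndufaf1 (-0.39), Ndufaf3 (0.14) and Ndufaf8 (0.07) did not.

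Complex I subunits moved in both directions. Ndufa1, a small X-linked subunit of the membrane arm, read 12.09, 12.19 and 12.10 in crypts of WT and 12.77, 12.69 and 12.94 in WT villi. The villus arrays are all higher (0.67 ± 0.11, limma adjusted p = 4.2e-05). The membrane-arm subunits Ndufb9 (0.52 ± 0.10), Ndufb3 (0.52 ± 0.10) and Ndufb8 (0.39 ± 0.08) rose too, as did Ndufc1, Ndufa6 and Ndufa7. The members of complex I that fell, all without overlap, were Ndufa10 (-0.44 ± 0.09), Ndufs7 (-0.51 ± 0.13) and Ndufs1 (-0.38 ± 0.12), the last a core iron-sulfur protein, and Ndufv2 (-0.25 ± 0.09), a core subunit of the NADH module.

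In complex II the catalytic genes went apart by their brightest probe sets. Sdha, the flavoprotein, read 12.53, 12.41 and 12.61 in crypts and 12.09, 12.32 and 11.94 in villi, while Sdhb, the iron-sulfur protein, gave 12.96, 12.77 and 12.79 in crypts, 13.20, 13.00 and 13.29 in villi. Sdha was lower in villi (-0.40 ± 0.11, limma adjusted p = 0.0060) and Sdhb higher (0.32 ± 0.09, limma adjusted p = 0.0088), with no overlap in either. The Sdha result depends on the probe set. A second bright set of Sdha (mean level 12.02) gave 0.20 (limma adjusted p = 0.125 over all probe sets), and a dim set (3.47) gave 0.50. In complex III only Uqcr10 was called (-0.31 ± 0.09). The core subunit Uqcrc1 and the Rieske protein Uqcrfs1 were not.

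In complex IV 6 genes were higher in WT villi and none lower. Cox4i1, Cox6a1 and Cox6b1 are the isoforms common to most tissues. Cox6a1 read 14.01, 14.002 and 14.10 in WT crypts and 14.43, 14.27 and 14.34 in WT villi, near the top of the scale (0.31 ± 0.08, limma adjusted p = 0.0039). Cox4i1 (0.26 ± 0.07) and Cox6b1 (0.29 ± 0.09) also rose. The tissue-restricted isoforms Cox7a1 (0.80 ± 0.20), Cox8c (0.60 ± 0.11) and Cox6a2 (0.44 ± 0.14) made up the rest. Cox5a, Cox7a2, Cox7a2l and Cox8a were not called.

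In complex V a gene for subunit c, Atp5g2, fell. Atp5g1, Atp5g2 and Atp5g3 encode the same mature protein, of which the rotor ring is made. Atp5g2 read 11.82, 11.92 and 11.66 in crypts of WT and 11.02, 10.88 and 11.19 in villi (-0.77 ± 0.16, limma adjusted p = 7.7e-04). Atp5g1 differed by -0.34 ± 0.12 (limma adjusted p = 0.032), a call lost without any of 4 of the 6 arrays, and Atp5g3 was not called (0.08). The catalytic genes Atp5a1 and Atp5b were not called either, while Atp5d (0.39 ± 0.09), Atp5md (0.39 ± 0.09), Atp5j2 (0.36 ± 0.11) and Atp5o (0.24 ± 0.09) rose.

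The balance of higher and lower members in WT rested on scaling. After quantile normalization 9 members were higher and 21 lower, and after centring on array medians 14 and 19. The lower assembly factors (3 and 5) and the higher complex IV genes (4 and 5) kept their direction under both, whereas the medians of complexes I and III turned from 0.05 and 0.02 to -0.06 and -0.13 with quantile normalization. Of 21 named calls, 15 passed without any 1 array; Sdhb was lost without WT villi 3 (0.26, limma adjusted p = 0.058), Uqcr10 without WT villi 2 (-0.24, limma adjusted p = 0.058), Ndufs1 without WT crypts 1 or WT villi 3 (adjusted p up to 0.080), Cox6b1 without WT villi 1 or WT villi 3 (0.0582), Cox6a2 without WT crypts 2, WT crypts 3 or WT villi 1 (0.0785), and Atp5g1 without WT crypts 1, WT crypts 2, WT villi 2 or WT villi 3 (0.139).

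**Figure D2:**
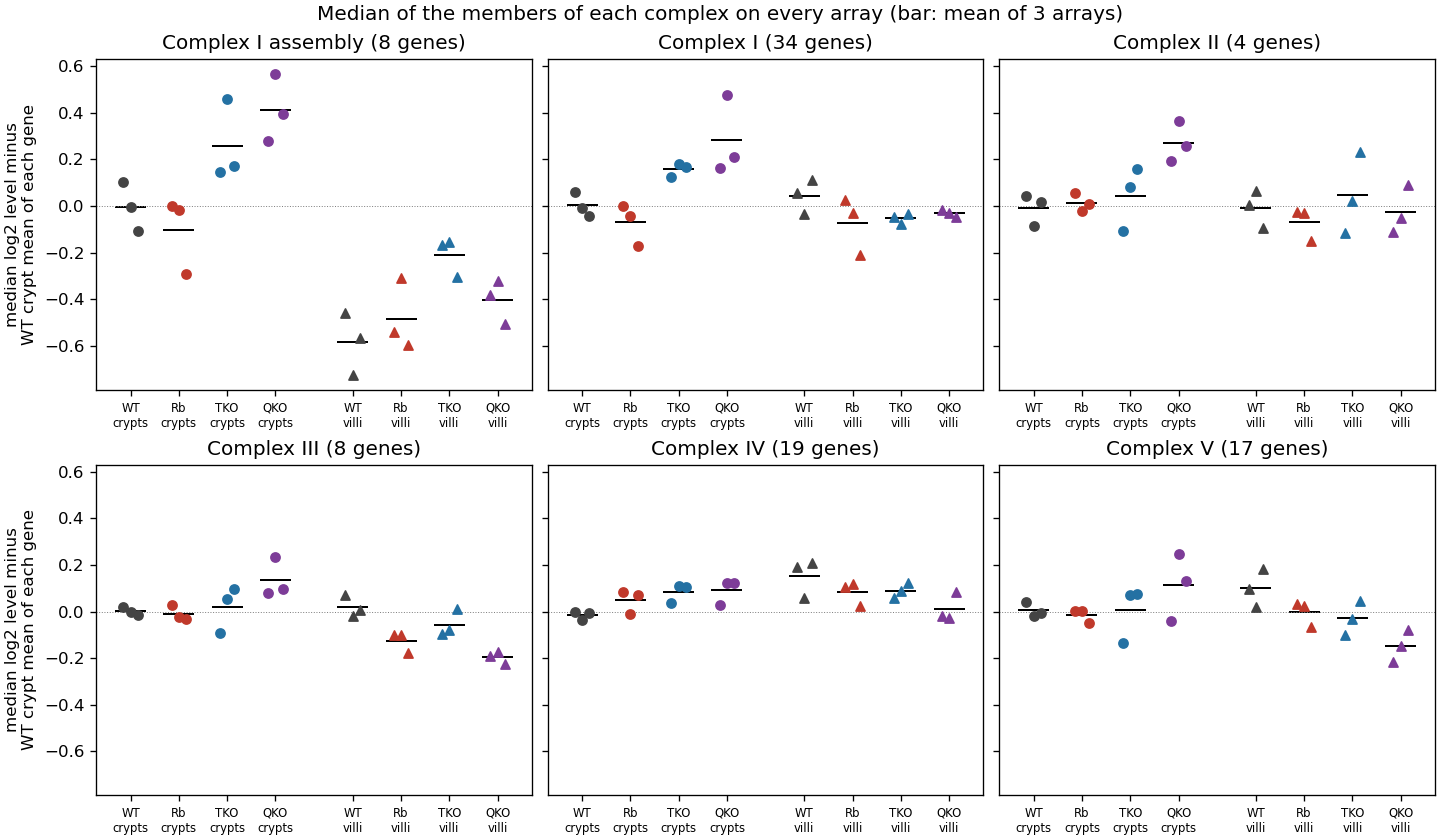
Median over the members of each complex of the log2 level minus the WT crypt mean of each gene (y axis), on every array (points; bars are means of 3 arrays), by genotype and compartment (x axis). For complex I the 3 QKO crypt arrays lie at 0.16 to 0.47 and the 3 WT crypt arrays at -0.04 to 0.06; the WT villus medians of complexes I, III and V turn below 0 with quantile normalization.

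Lower members outnumbered higher ones in the villi of each mutant, as lower genes did among all genes. In WT they did so only after quantile normalization or centring. In Rb, 6 members were higher in villi (7.61% of all genes) and 12 lower (9.65%), shares near the background. In TKO, 1 was higher (6.43%) and 17 lower (8.99%). In QKO, 1 was higher (13.5%) and 41 lower (19.9%). In QKO the lower members included 7 of 8 assembly factors, 16 of 34 complex I genes, 5 of 8 in complex III, 8 of 17 in complex V, 4 of 19 in complex IV and 1 of 4 in complex II. The median member stood at -0.26 in QKO and the median of all genes at 0.01. Quantile normalization gave 2 and 48 in QKO, 1 and 26 in TKO, and 3 and 19 in Rb. Centring gave 1 and 54, 2 and 19, and 7 and 12. Poly-A spike controls averaged 9.70 to 10.37 in QKO crypts and 11.28 to 11.89 in QKO villi, without overlap. In Rb they averaged 5.44 to 5.79 and 5.98 to 7.13. Handling of the RNA and compartment thus cannot be told apart in QKO or Rb.

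The 5 members Ndufaf4, Ndufaf6, Ndufaf7, Ndufa10 and Atp5g2 were lower in villi in all 4 genotypes, 5.56% of the members beside 4.11% of all genes (747). The count of 5 became 2 without TKO crypts 2 (Ndufaf4 and Ndufaf6), 2 without both WT crypts 3 and Rb crypts 2 (Ndufa10 and Ndufaf7), and 4 to 6 without each other array. None was higher in all 4, and 30 were called in no genotype. Ndufaf4 differed by -1.35 in WT, -0.71 ± 0.16 in Rb, -0.80 ± 0.16 in TKO and -1.43 ± 0.16 in QKO. For Ndufaf6 the values were -0.98, -0.53 ± 0.18, -0.84 ± 0.18 and -1.32 ± 0.18. Ndufa10, an accessory subunit of the membrane arm, gave -0.44, -0.56 ± 0.09, -0.34 ± 0.09 and -0.65 ± 0.09, and Atp5g2 -0.77, -0.66 ± 0.16, -0.52 ± 0.16 and -0.60 ± 0.16. The 4 comparisons use separate arrays.

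**Figure D3:**
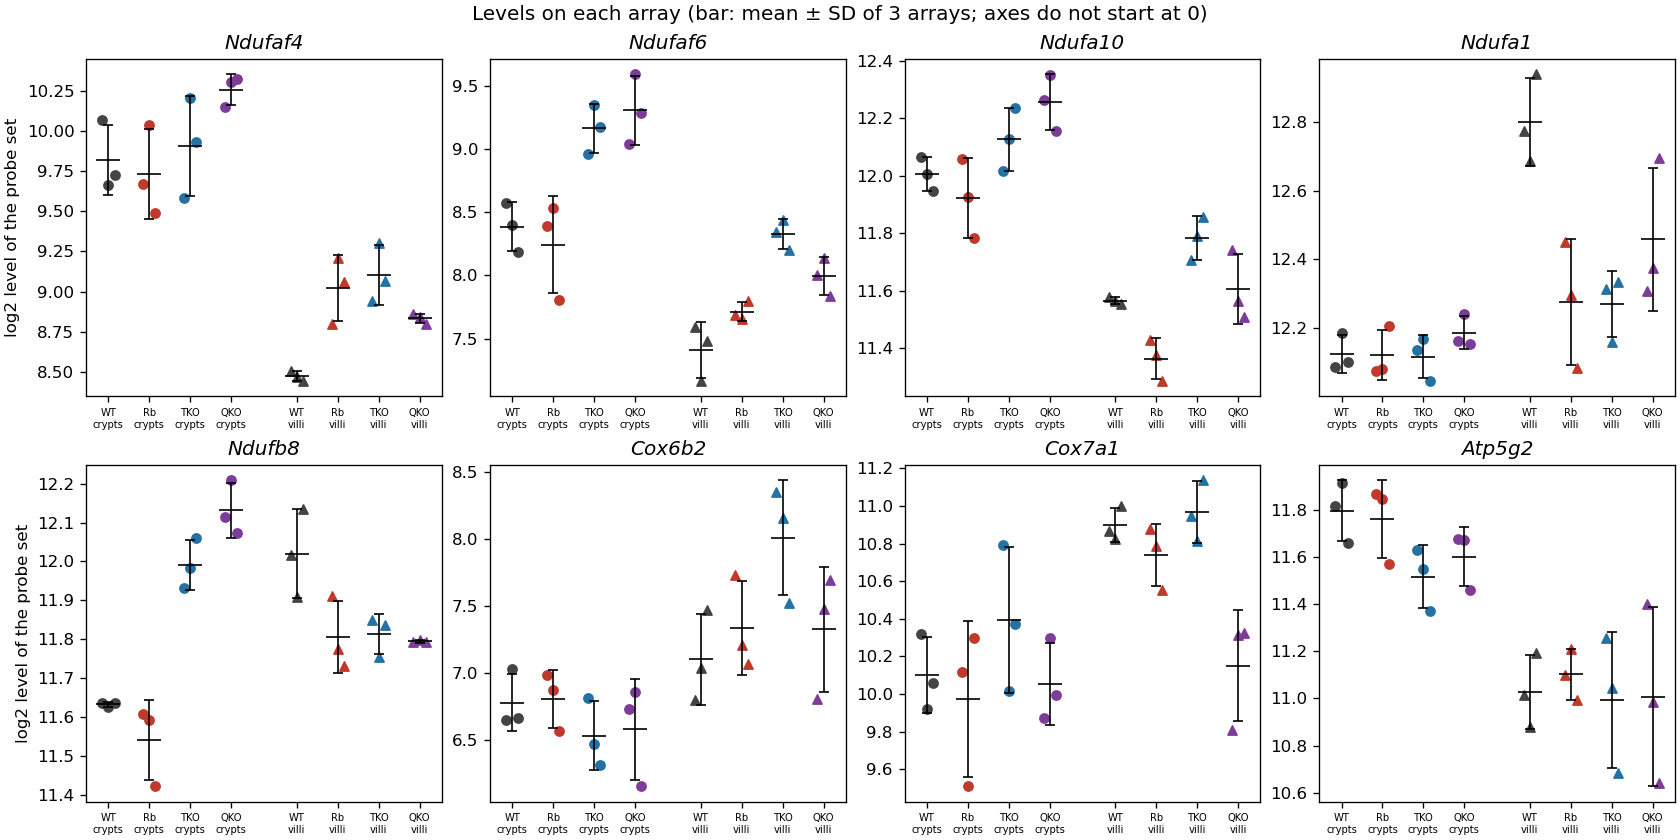
Log2 level of the probe set (y axis, not starting at 0) on each array for 8 members, by genotype and compartment (x axis), with the mean ± SD of 3 arrays. Ndufaf4 is lower in villi in every genotype, Ndufa1 has its highest group mean in WT villi (12.80, beside 12.12 to 12.46 in the other groups), and Cox6b2 reaches 7.52 to 8.35 in TKO villi.

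Cox6b2, an isoform best known from testis, was the only member called higher in villi in TKO. It read 6.81, 6.47 and 6.31 on the TKO crypt arrays and 8.35, 8.16 and 7.52 on the TKO villus arrays. The groups do not overlap (1.48 ± 0.26, limma adjusted p = 0.0018), a 2.79-fold difference. In QKO villi it was called too (0.74 ± 0.26), with overlapping arrays, and it lost that call without QKO crypts 3, QKO villi 2 or QKO villi 3 (0.53 to 1.01 over the 6 arrays left out in turn, limma adjusted p up to 0.162). In WT (0.32) and Rb (0.53) it was not called.

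The counts in the mutants rested on single arrays. In Rb the 18 calls became 10 without Rb crypts 1, 8 without Rb crypts 2 (the array that went against its label), 10 without Rb villi 1, and 4 without both WT crypts 3 and Rb crypts 2. In TKO the 18 became 3 without TKO crypts 2, 10 without TKO crypts 3, 9 without TKO villi 2 and 5 without TKO villi 3, while in QKO the 42 stayed between 30 and 41 without any 1 array and became 27 without QKO crypts 2 and QKO villi 3. Markers of other cells moved too. All 8 T cell genes measured were higher in QKO villi than in QKO crypts, with mean levels of 9.37 to 10.36 in QKO villi and 6.44 to 6.93 in QKO crypts, and 6 of 8 enteroendocrine and 5 of 7 goblet genes were higher. Of 3 pancreatic acinar genes 2 were lower, with mean levels of 6.81 to 9.32 in QKO crypts and 6.67 to 6.94 in QKO villi. Their part in the members' difference was not tested.

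Whether the villus minus crypt difference changed with genotype was tested directly. Hybridisation controls were higher in crypts in WT but higher in villi in TKO and QKO. Processing of the arrays and the TKO and QKO shifts thus cannot be told apart. Against WT, 0 members were higher and 1 lower in Rb (4.12% and 1.10% of all genes), 0 and 4 in TKO (2.69% and 0.737%), and 0 and 13 in QKO (2.87% and 2.57%). The median member shifted by -0.10 in Rb, -0.17 in TKO and -0.31 in QKO, and the median of all genes by -0.09, -0.05 and -0.05. The 13 comprised 5 complex I, 1 complex II, 2 complex III, 2 complex IV and 3 complex V genes and 0 assembly factors. Quantile normalization gave 0 and 11 in QKO and centring 0 and 16. All 8 T cell genes were higher in QKO villi than in QKO crypts and 1 of 8 in WT, and 7 of 8 had a called shift; their part was not tested.

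Ndufb8 showed the shift most clearly. It read 11.64, 11.63 and 11.64 in WT crypts and 12.02, 11.91 and 12.14 in WT villi. In QKO it read 12.11, 12.21 and 12.07 in crypts and 11.79, 11.80 and 11.79 in villi. The order of the compartments is thus the opposite in QKO, and the shift was -0.72 ± 0.12 (limma adjusted p = 0.0021). In TKO the shift was -0.57 ± 0.12 (limma adjusted p = 0.011). Uqcrh, the hinge protein of complex III, read 13.31, 13.31 and 13.28 in crypts of WT, 13.53, 13.38 and 13.56 in villi of WT, 13.32, 13.42 and 13.22 in QKO crypts, and 13.06, 12.85 and 12.70 in QKO villi. Its QKO villus arrays are the lowest of all (shift -0.64 ± 0.13, limma adjusted p = 0.0072). Cox4i1 was higher in WT villi and lower in QKO villi than in the crypts (-0.21 ± 0.07 in QKO), a shift of -0.46 ± 0.10 (limma adjusted p = 0.010). Ndufb3 (-0.78 ± 0.15) and Ndufb5 (-0.65 ± 0.13) shifted as well. These 5 QKO calls passed without any 1 array.

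Loss of Rb was compared with WT in each compartment. In crypts 0 members were called in either direction, as were 0% of all genes higher and 0% lower by limma; at an unadjusted p under 0.05 there was 1 member, Cox8c (0.31 ± 0.11, limma adjusted p = 0.999). In villi 1 was higher (8.59% of all genes) and 6 lower (6.19%). Complex I accounted for 4 of the 6. Ndufa1 read 12.77, 12.69 and 12.94 in WT villi and 12.45, 12.30 and 12.08 in Rb villi, with no overlap (-0.52 ± 0.11, limma adjusted p = 0.0017). Ndufb3 (-0.44 ± 0.10), Ndufb10 (-0.42 ± 0.13) and Ndufb9 (-0.30 ± 0.10) fell, as did Sdhb (-0.28 ± 0.09) and the assembly factor Ndufaf3 (-0.56 ± 0.15). The only member that rose was Ndufaf4, with 8.80, 9.21 and 9.06 in Rb villi (0.55 ± 0.16, limma adjusted p = 0.022).

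In the same comparison all 13 replication genes measured were higher in Rb villi, at mean levels of 10.42 to 10.61 beside 7.84 to 8.19 in WT villi, and 5 of 8 enteroendocrine genes were lower; their part was not tested. With scaling the members' split was 2 higher and 6 lower (quantile) or 1 and 5 (centring). The 7 calls became 2 without WT villi 3, 4 without Rb villi 2 and 2 without Rb villi 3, and of 6 named calls only those of Ndufa1 and Ndufb3 passed without any 1 array; with sex as a covariate 3 members were called.

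**Figure D4:**
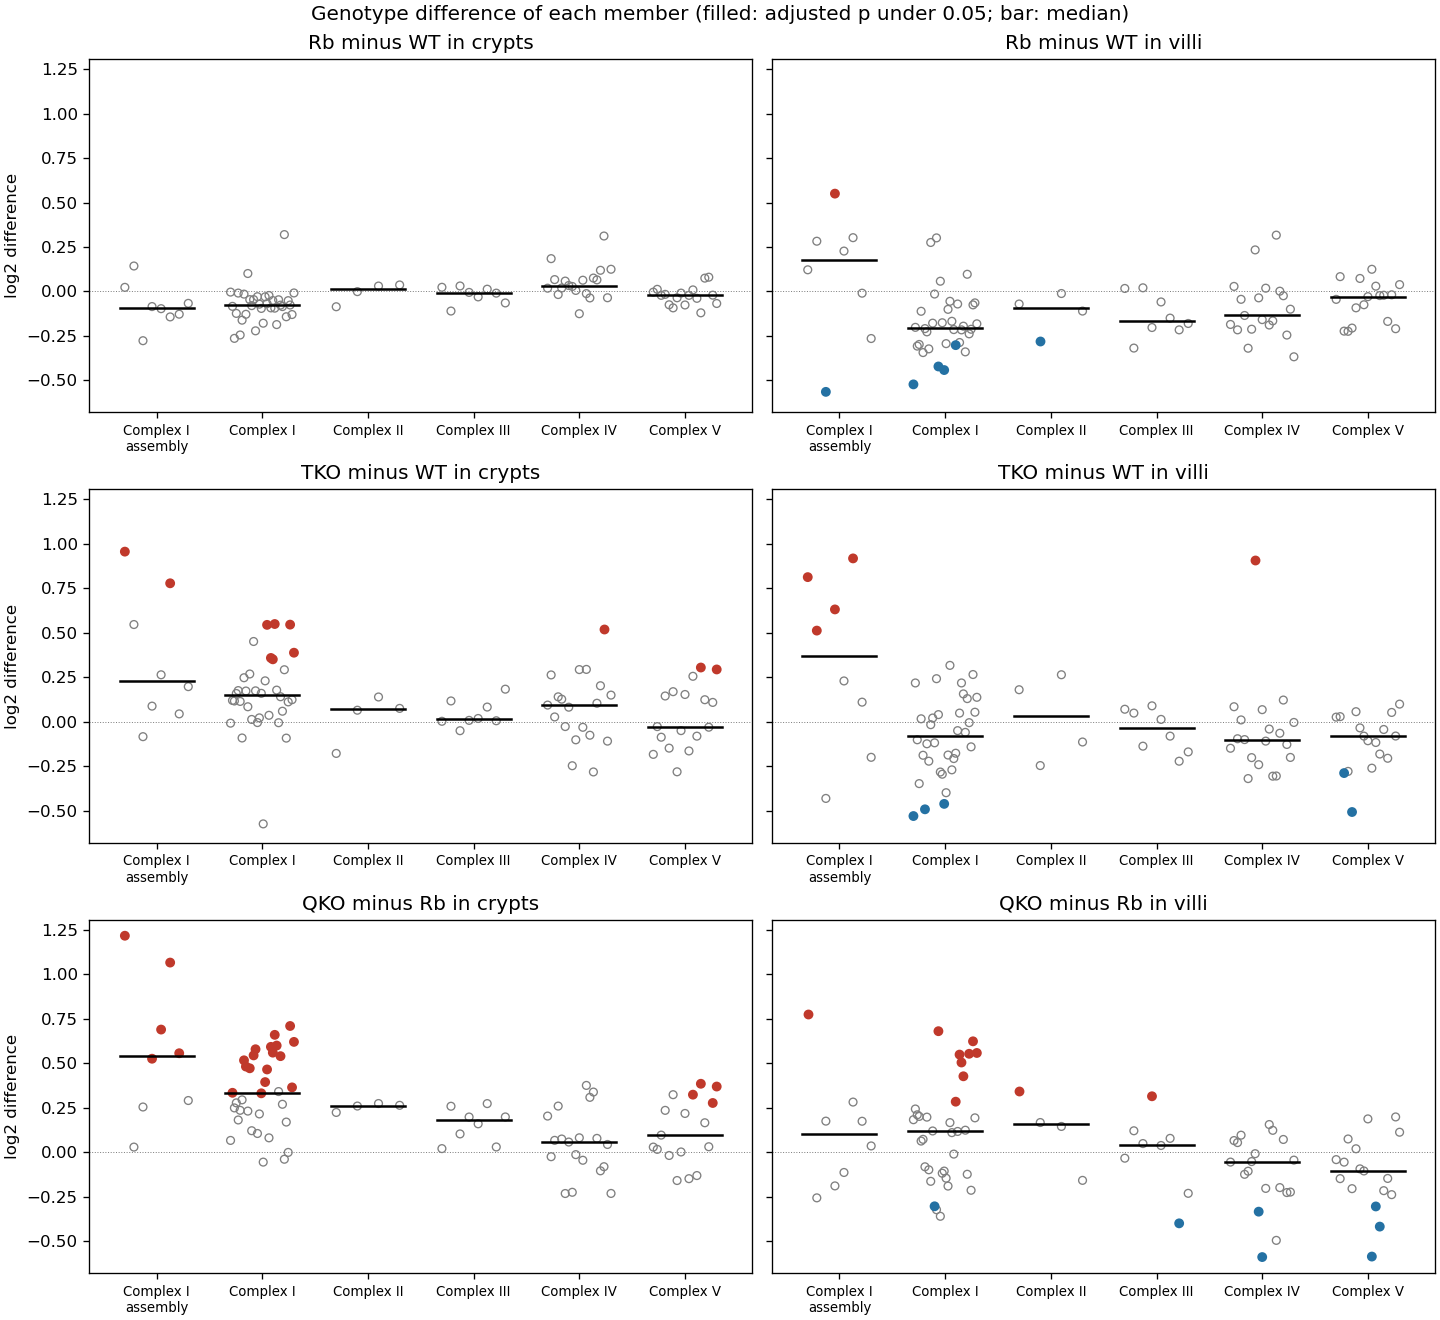
Log2 difference between genotypes (y axis) for each member by complex (x axis) in crypts (left) and villi (right), with filled points for an adjusted p under 0.05 and bars for the median. In QKO minus Rb crypts 26 members are higher and 0 lower. In Rb minus WT crypts none is called, and Rb1 is not called there either.

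Loss of E2f1 to E2f3 was first compared with WT. In crypts 11 members were higher in TKO (1.93% of all genes) and 0 lower (2.80%). The 11 were 6 complex I genes (Ndufc1, Ndufv1, Ndufb6, Ndufv3, Ndufb8 and Ndufb9), the assembly factors Ndufaf1 and Ndufaf6, Cox8c, Atp5l and Atp5pb. Ndufaf1, a chaperone of the membrane arm, read 8.54, 8.31 and 8.10 in WT crypts and 9.07, 9.36 and 9.39 in TKO crypts (0.96 ± 0.18, limma adjusted p = 0.0037). Ndufc1 read 11.57, 11.47 and 11.50 in WT and 12.02, 12.07 and 12.10 in TKO crypts (0.55 ± 0.12, limma adjusted p = 0.012). Neither gene's groups overlap.

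In TKO villi 5 of 90 members were higher (6.21% of all genes) and 5 lower (3.57%) than in WT villi, the higher share near the background. The higher ones were 4 of the 8 assembly factors and Cox6b2 (0.91 ± 0.26). Ndufaf6 read 7.59, 7.16 and 7.48 in WT villi and 8.35, 8.44 and 8.20 in TKO villi (0.92 ± 0.18, limma adjusted p = 0.0016). Ndufaf1 (0.81 ± 0.18), Ndufaf4 (0.63 ± 0.16) and Ndufaf2 (0.51 ± 0.16) were the others, and Ndufaf1 and Ndufaf6 were higher in both compartments. The lower ones were Ndufa1 (-0.53 ± 0.11), Ndufb3 (-0.46 ± 0.10), Ndufa5 (-0.49 ± 0.13), Atp5e (-0.51 ± 0.14) and Atp5c1 (-0.29 ± 0.08). Ndufa1 and Ndufb3 were also lower in Rb villi, a comparison with the same WT arrays.

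Scaling gave 13 higher and 1 lower (quantile) or 8 and 1 (centring) in crypts. The crypt count of 11 became 3 without WT crypts 2, 4 without WT crypts 3 (the array that went against its label), 4 without TKO crypts 3 and 5 to 7 without each other array, and 4 with sex as a covariate. Ndufaf1 passed without any 1 array in both compartments, and in villi so did Ndufaf6, Ndufa1 and Ndufb3; the villus count of 10 became 5 without WT villi 3, 6 without TKO villi 1 and 4 without TKO villi 2. Beside these, 5 of 7 goblet genes were lower in TKO crypts (mean levels 11.83 to 11.9997 beside 12.71 to 12.92 in WT crypts) and 5 of 7 in TKO villi. Paneth markers averaged 11.40 to 12.30 in TKO crypts and 12.87 to 13.35 in WT crypts, T cell markers 6.94 to 7.05 and 7.64 to 8.96, and stem cell markers 8.20 to 8.71 and 8.78 to 9.49, without overlap, though 1 of 6, 1 of 8 and 0 of 6 of these genes were called lower. In villi 11 of 13 replication genes were higher in TKO (9.30 to 9.88 beside 7.84 to 8.19 in WT villi). Their part in the members' differences was not tested.

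Loss of E2f1 to E2f3 was then compared on top of Rb loss. In crypts 26 members were higher in QKO than in Rb (13.4% of all genes) and 0 lower (3.78%), and 8 and 0 when only these 2 groups were fitted. Complex I held 17 of them, the assembly factors 5, complex V 4, and complexes II, III and IV none. Ndufb8 read 11.61, 11.59 and 11.42 in Rb crypts and 12.11, 12.21 and 12.07 in QKO crypts, with no overlap (0.59 ± 0.08, limma adjusted p = 9.7e-05). Ndufaf1 read 8.75, 8.26 and 8.01 in Rb and 9.50, 9.75 and 9.42 in QKO crypts (1.22 ± 0.18, limma adjusted p = 1.2e-04), 2.32-fold higher. Ndufaf6 (1.07 ± 0.18), Ndufv3 of the NADH module (0.62 ± 0.10) and the core subunit Ndufs3 (0.54 ± 0.09) followed, and these 5 calls passed without any 1 array. Of the 11 members higher in TKO than WT crypts, 10 were also higher in QKO than Rb crypts, 90.9% of the first set and 38.5% of the second. Over all genes these shares were 79.5% and 11.4% (279 genes of 351 and of 2441). Those comparisons share no array, though the TKO and QKO arrays share the spike control difference. They also share a difference in sex: by Eif2s3y all QKO crypt arrays, TKO crypts 2 and TKO crypts 3 were male. No WT or Rb crypt array was, so QKO against Rb in crypts is also male against female.

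QKO crypts 2, with the high array median, had the highest complex I median of all arrays (0.47). Without it 16 members were higher, without both QKO crypts 2 and QKO villi 3 there were 17, with quantile normalization 20 and with sex as a covariate 11, all with 0 lower. All 3 pancreatic acinar genes were higher in QKO crypts (mean levels 6.81 to 9.32, beside 6.11 to 6.25 in Rb crypts) and 6 of 7 goblet genes lower (11.31 to 12.16 beside 12.83 to 12.87). Of 8 enteroendocrine genes 4 were higher, of 8 T cell genes 3 lower, and of 13 replication genes 2 were higher and 2 lower. Their part in the members' difference was not tested.

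In villi 11 of 90 members were higher in QKO than in Rb (14.2% of all genes) and 7 lower (8.02%), shares near the background. Complex I gave 8 of the higher ones. Ndufb10, a membrane-arm subunit, read 11.08, 11.06 and 10.71 in Rb villi and 11.58, 11.70 and 11.59 in QKO villi (0.68 ± 0.13, limma adjusted p = 6.0e-04). Ndufv1, which binds NADH, rose by 0.62 ± 0.14, Ndufv3 by 0.56 ± 0.10, Ndufc2 by 0.55 ± 0.12 and Ndufs3 by 0.43 ± 0.09. The lower ones were Atp5j (-0.59 ± 0.11), Atp5k (-0.42 ± 0.11), Atp5j2, Uqcrh (-0.40 ± 0.09), Cox6c (-0.33 ± 0.09), Cox7a1 (-0.59 ± 0.20) and Ndufab1. Centring turned the balance to 8 higher and 20 lower, and quantile normalization gave 12 and 10. The median of all genes was 0.08 as deposited and -0.02 after either scaling. All 8 enteroendocrine genes were higher in QKO villi (mean levels 10.77 to 11.56 beside 8.06 to 8.29 in Rb villi), as were 4 of 8 T cell and 4 of 6 fibroblast genes, while 5 of 7 goblet and 11 of 13 replication genes were lower. Their part was not tested. Atp5k lost its call without QKO villi 1 (limma adjusted p = 0.0594), Cox6c without QKO villi 2 (0.0736) and Cox7a1 without Rb villi 1, Rb villi 2 or QKO villi 1 (up to 0.167).

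Loss of Rb where E2f1 to E2f3 were absent was read as QKO against TKO. The spike controls averaged 9.70 to 10.37 in QKO and 10.26 to 11.55 in TKO crypts, but 11.28 to 11.89 in QKO and 10.52 to 10.77 in TKO villi, without overlap, so in villi handling and genotype cannot be told apart here either. In crypts 0 members were called by limma (1.42% of all genes higher, 0.181% lower), and 12 passed at an unadjusted p under 0.05, 10 of them higher. The smallest p belonged to Ndufs3 (0.32 ± 0.09, limma adjusted p = 0.0726), Cox7c (0.69 ± 0.20, limma adjusted p = 0.0777) and Sdha (0.31 ± 0.11, limma adjusted p = 0.141). In villi 0 were higher (5.51% of all genes) and 3 lower (1.17%): Uqcrh (-0.39 ± 0.09, limma adjusted p = 0.011), Cox7a1 (-0.82 ± 0.20, limma adjusted p = 0.017) and Atp5mpl (-0.31 ± 0.09, limma adjusted p = 0.048). Cox7a1 read 10.95, 10.81 and 11.14 in TKO villi and 9.81, 10.31 and 10.33 in QKO villi, with no overlap. It lost its call without TKO villi 3 or QKO villi 1, Uqcrh without QKO villi 3 and Atp5mpl without any of 5 arrays, at limma adjusted p up to 0.0693, 0.0688 and 0.156. All 8 enteroendocrine, 4 of 7 goblet, 3 of 8 T cell and 2 of 6 fibroblast genes were higher in QKO villi than in TKO villi. T cell markers averaged 9.37 to 10.36 in QKO and 8.13 to 9.22 in TKO villi, and fibroblast markers 5.72 to 7.59 and 4.57 to 5.25, without overlap. Their part was not tested.

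The effect of Rb loss in villi was tested for a difference between mice with and without E2f1 to E2f3, as QKO minus TKO less Rb minus WT. It was higher for 5 of 90 members (8.91% of all genes) and lower for 2 (6.52%), both shares below those of all genes. Ndufa1 stood out with 0.71 ± 0.15 (limma adjusted p = 0.0028), since it was lower in Rb than in WT villi but read 12.31, 12.16 and 12.33 in TKO villi and 12.31, 12.37 and 12.70 in QKO villi. Ndufb10 (0.64 ± 0.18), Ndufc2 (0.50 ± 0.17), Ndufb9 (0.46 ± 0.14) and Sdhb (0.41 ± 0.13) were the others. The 2 lower were Ndufaf4 (-0.82 ± 0.23) and Ndufaf2 (-0.77 ± 0.23). Quantile normalization gave 3 higher and 4 lower and centring 3 and 7, as the median of all genes moved from 0.12 to 0.01 and 0.00. Of the 7 calls only Ndufa1 passed without any 1 array, and the count became 4 without WT villi 1, 2 without WT villi 3, 3 without Rb villi 2 or Rb villi 3, 2 without TKO villi 2 and 4 without QKO villi 3.

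Related mitochondrial genes were counted from lists, beside 18.6% of all genes lower and 18.8% higher in WT villi than in WT crypts. In WT villi 18 of 46 assembly factors of all complexes were lower than in crypts and 3 higher, a list that holds the 8 members with Ndufaf symbols. Outside the members, Acad9, which assembles complex I, gave -1.53 ± 0.18, and Lrpprc, which stabilises mitochondrial mRNA, -1.48 ± 0.21. Of 76 mitochondrial ribosomal genes 51 were lower and 2 higher, and of 20 regulators of mitochondrial biogenesis 11 were lower and 4 higher. Among these, Tfam, the mitochondrial DNA packaging factor, gave -1.21 ± 0.12, the coactivator Pprc1 -2.34 ± 0.24 and Myc -2.30 ± 0.29. The tricarboxylic acid cycle had 8 lower and 4 higher of 18, with Idh2 at -1.79 ± 0.19, and glycolysis 3 lower and 2 higher of 13. The medians of the assembly, ribosomal, biogenesis and tricarboxylic acid cycle lists stayed below 0 after quantile normalization and centring, and that of glycolysis (0.00) turned to -0.06 with centring. The difference between these lists and the members was not tested. All 13 replication genes measured were lower in WT villi. Ribosomal genes of the cytosol were lower by mean level too, at 10.35 to 10.53 in WT villi and 11.01 to 11.19 in WT crypts. For the mitochondrial ribosomal genes these levels were 9.28 to 9.47 and 9.84 to 10.04, so the fall was not particular to mitochondrial ribosomal genes.

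**Figure D5:**
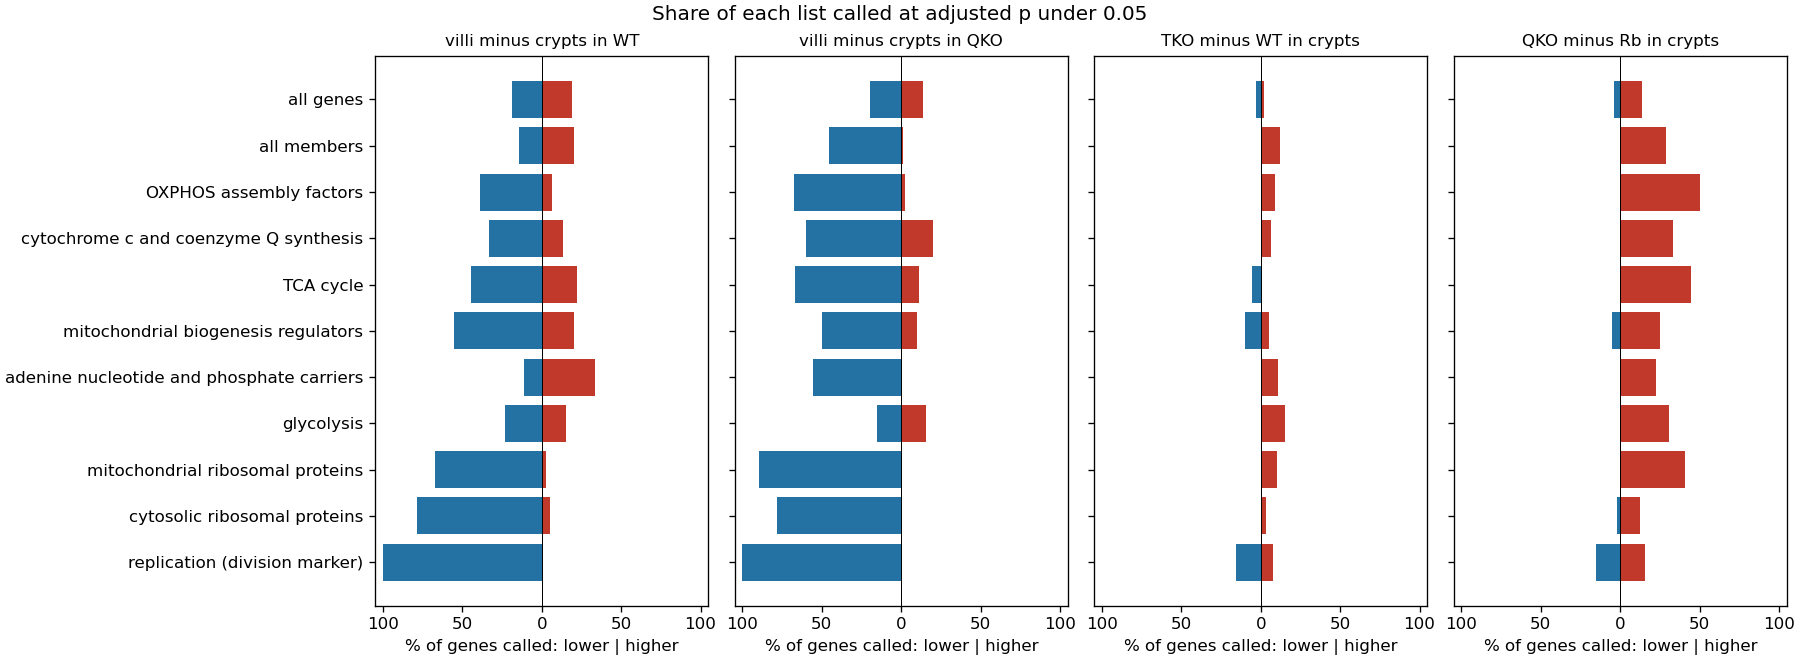
Percent of each list called lower (left of 0) and higher (right of 0) at an adjusted p under 0.05 in 4 comparisons, with all genes and the 90 members on top. In QKO villi 68 of 76 mitochondrial ribosomal genes and 31 of 46 assembly factors are lower than in QKO crypts, and in QKO minus Rb crypts 31 and 23 are higher.

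Lists were also counted in crypts without E2f1 to E2f3. Over all genes 13.4% were higher and 3.78% lower in QKO than in Rb crypts. In QKO against Rb crypts 23 of 46 assembly factors, 31 of 76 mitochondrial ribosomal genes, 8 of 18 tricarboxylic acid cycle genes and 5 of 15 genes of cytochrome c and coenzyme Q were higher and none of these lower. Quantile normalization gave 17, 20, 4 and 5 higher, with 1 mitochondrial ribosomal and 2 tricarboxylic acid cycle genes lower. In TKO against WT crypts the counts were 4, 8, 0 and 1, with 1 of the tricarboxylic acid cycle genes lower. Over all genes 1.93% were higher and 2.80% lower there. Mean levels of the biogenesis regulators overlapped between TKO and WT crypts (8.29 to 8.48 and 8.36 to 8.58). No test compared these lists with the members. Mean levels of some other lists were also higher in QKO than in Rb crypts, without overlap. They were 10.30 to 10.51 beside 9.86 to 10.14 for glycolysis and 11.21 to 11.39 beside 10.83 to 11.17 for cytosolic ribosomal genes. For adenine nucleotide and phosphate carriers they were 11.52 to 11.64 beside 11.13 to 11.18. In TKO against WT crypts glycolysis (10.20 to 10.31 beside 9.93 to 9.97) and cytosolic ribosomal genes (11.21 to 11.33 beside 11.01 to 11.19) were also higher. A large change outside the members was that of Slc25a4, which exchanges ADP and ATP across the inner membrane and supplies complex V with substrate. It was higher in TKO than in WT crypts (1.63 ± 0.25, limma adjusted p = 7.5e-04) and in QKO than in Rb crypts (3.21 ± 0.25, limma adjusted p = 5.1e-08).

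Other probe sets of the members were read as a check on the probe set chosen. Of the 19 members called between WT villi and crypts that had several probe sets, all other sets pointed the same way for 14 and another set was called in the same direction for 8. For Sdha another set was called in the opposite direction. In QKO against Rb crypts these counts were 11 and 10 of 14, with none opposite. Ndufaf4 held: its second set gave -1.05 in WT, -0.35 in Rb, -0.77 in TKO and -1.37 in QKO villi against crypts, of which the Rb value was not called. Ndufv1 did not, since its 3 sets gave 0.55, -0.01 and 1.37 in TKO against WT crypts. The single set of Ndufb4 was dim (mean 3.77), and those of Ndufb1 and Cox7c, the latter the brighter of a pair, had means of 7.41 and 7.44.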

How the data were processed

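Total RNA (Trizol) of small intestinal crypts and villi was labelled with biotin from 3 ug and hybridised to 24 Affymetrix arrays, per the labels' protocols. The authors deposited log2 values per probe set. Their summarisation and normalization are stated neither in the labels nor in the file. All value columns were used, and nothing was normalized again, filtered or offset. The platform annotation ties 34945 of the 45101 probe sets to a single gene and 932 to several; 9160 have none here, and 64 are controls. Each of 18193 genes was read by its probe set with the highest mean.

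Groups came from the labels. limma 3.58.1 (R 4.3.3) gave all tests of differences (lmFit and eBayes with an intensity trend; 1 mean per group over all 24 arrays, residual df 16, prior df 4.86; 2-sided; Benjamini-Hochberg within each of 16 comparisons; called at adjusted p under 0.05). The procedure was tested on simulated data. Members, lists, motifs, tests and alternatives were chosen with earlier results of these data known. Named were, per comparison, up to 5 called members in each direction with the smallest p (in WT villi against crypts also 2 per complex; where none was called, the 3 with the smallest p), a fixed set of core subunits and isoforms, and the called list genes with the smallest p. Other members named were chosen after their values were seen. Lists are described by counts, with no set test. The cytosolic ribosomal list is a symbol pattern that also takes in a few kinases and paralogs.

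Replicates correlated at 0.978 or more within groups. Deviations from group means correlated between same-numbered crypt and villus arrays at 0.61, 0.55 and 0.64 in TKO and 0.55, 0.25 and 0.37 in QKO, so the numbers pair there, by the values and not by the labels. In WT and Rb they do not. Alternatives were quantile normalization, centring, no trend, removal of dim genes, averaging the probe sets of each gene, fits on the compared groups alone, replicate blocks, array weights, sex as a covariate, and leaving out single arrays or the 2 doubtful pairs. Precision is limited by 3 arrays a group. Promoter windows are RefSeq's (GRCm38.p6). Figures used matplotlib 3.10.9.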

Additional observations from a re-analysis of the deposited data

Results flagged for a closer look

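The tests of whether a difference changed between genotypes gave calls in 4 cases, each by an interaction term in limma with an adjusted p under 0.05. For the villus minus crypt difference in Rb less that in WT, 1 member was called, Cox8c at -0.56. In TKO less WT there were 4, namely Ndufb3 at -0.62, Ndufb8 at -0.57, Ndufb9 at -0.53 and Cox8c at -0.65. In QKO less WT there were 13, and those named by rule were Ndufb3 at -0.78, Ndufb5 at -0.65, Ndufb8 at -0.72, Uqcrh at -0.64 and Cox4i1 at -0.46. The 3 sets share the WT arrays, and in TKO and QKO array processing and the shift cannot be told apart.

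For the effect of Rb loss in villi without E2f1 to E2f3 less that with them, 7 members were called. Ndufa1 stood at 0.71, Ndufb10 at 0.64, Ndufb9 at 0.46, Ndufc2 at 0.50 and Sdhb at 0.41. The assembly factors Ndufaf2 and Ndufaf4 stood at -0.77 and -0.82. Ndufb8 in TKO, the 5 named members in QKO and Ndufa1 kept their calls without any 1 array, and the others named here lost theirs without at least 1.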

How the results depend on the processing

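Between WT villi and crypts 31 members were called, 23 to 27 without any 1 array; no comparison had more than 3 arrays a group, and dim members such as Cox7b2 limit what can be seen. Leaving out 1 array in turn gave 8 to 20 calls in Rb villi against crypts, 3 to 15 in TKO and 30 to 41 in QKO. It gave 2 to 9 for Rb minus WT in villi, 3 to 7 for TKO minus WT in crypts and 4 to 10 in villi, 16 to 28 for QKO minus Rb in crypts and 12 to 17 in villi, 0 to 1 for QKO minus TKO in crypts and 2 to 4 in villi. For the shifts against WT it gave 0 to 2 (Rb), 1 to 5 (TKO) and 10 to 17 (QKO), and 2 to 10 for the difference in the effect of Rb loss. Rb minus WT in crypts stayed at 0 calls, a comparison in which Rb1 was not called either. Of 99 calls of named members, 54 held without any 1 array. Fitting only the groups compared, with fewer residual degrees of freedom, gave 8, 10 and 19 calls in villi against crypts of Rb, TKO and QKO, 6 for TKO minus WT in crypts, 8 and 9 for QKO minus Rb in crypts and villi, 0 for QKO minus TKO in villi, and 0 and 6 for the Rb and QKO shifts. Array weights gave 30 (Rb villi against crypts), 29 (Rb minus WT in villi), 18 (TKO minus WT in villi), 5 (QKO minus TKO in villi), 4 and 11 (Rb and TKO shifts) and 18 (effect of Rb loss). Sex as a covariate gave 11, 3, 4, 6, 11 and 0 for Rb villi against crypts, Rb minus WT in villi, TKO minus WT in crypts and in villi, QKO minus Rb in crypts and the Rb shift. Without dim genes there were 12 for Rb minus WT in villi, 1 for QKO minus TKO in crypts, 2 and 7 for the Rb and TKO shifts and 13 for the effect of Rb loss. Quantile normalization gave 1 and 7 for QKO minus TKO in crypts and villi, and centring 28 for QKO minus Rb in villi, 7 for QKO minus TKO in villi and 0 for the Rb shift. Averaging the probe sets of each gene gave 11 and 10 in Rb and TKO villi against crypts and 0 and 2 for the Rb and TKO shifts, and turned Sdha in WT from -0.40 to 0.13. Without WT crypts 3 and Rb crypts 2 there were 4 calls in Rb villi against crypts, 4 for TKO minus WT in crypts and 2 for the TKO shift, and without QKO crypts 2 and QKO villi 3 there were 27 in QKO villi against crypts and 17 for QKO minus Rb in crypts. The replicate block (crypts and villi of a number as a random block) gave 2 for the Rb shift in place of 1 and moved no other count by over 1.5 times. Pairing holds in TKO and QKO only. The block used a single correlation of 0.0984 for all genotypes, so it cannot show what pairing does in TKO and QKO. Except where the construction shows it, the cause was not tested.

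Medians of a complex relative to WT crypts moved by more than their replicate SD in some cases. Quantile normalization gave -0.36, -0.0557, -0.16, -0.13 and -0.0174 for the assembly factors and complexes I, II, III and V in WT villi, -0.15 and -0.19 for II and III in Rb villi, -0.13, -0.11 and 0.0089 for I, III and IV in TKO villi, and -0.16, -0.31 and -0.0564 for I, III and IV in QKO villi. Centring gave -0.0486 for III in WT villi, -0.12 and 0.0582 for I and IV in TKO villi, and -0.57, -0.17, -0.19, -0.32, -0.11 and -0.27 for the assembly factors and I to V in QKO villi. That average gave 0.21 for II in WT villi, 0.0119 in Rb villi and 0.16 in QKO villi, 0.0238 for III in TKO villi and 0.0023 in QKO villi, and 0.0319 for IV in QKO crypts.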

Other observations

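Probe sets annotated to several genes were left out of the members, and 2 of them cover the bright signal of Ndufb4, an accessory subunit of complex I. The set shared by Ndufb4, Ndufb4b and Ndufb4c stood at 11.17 ± 0.06 (SD, n = 3) in crypts of WT and at 11.73 ± 0.17 in their villi. In TKO it read 11.51 ± 0.05 in crypts and 11.27 ± 0.01 in villi, and in QKO 11.52 ± 0.20 and 11.09 ± 0.15. The villus arrays are thus the higher ones in WT and the lower ones by mean in TKO and QKO, an order also seen for Ndufb8. A set shared by Ndufab1, the mitochondrial acyl carrier protein, and its pseudogene stood in WT at 11.22 ± 0.05 in crypts and 11.57 ± 0.05 in villi, and at 11.81 ± 0.02 and 11.43 ± 0.04 in TKO. In Rb it stood at 11.10 ± 0.12 and 11.53 ± 0.12, and in QKO at 11.87 ± 0.17 and 11.55 ± 0.16. The brighter set read for Ndufab1 as a member went the other way in WT, at 12.30 ± 0.08 in crypts and 12.09 ± 0.07 in villi. Which of the genes gave the signal cannot be read from the shared sets, and no test was run on them.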
